A study of Mus musculus with 10 samples.

Results

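The data described here are the day 3 (d3) against day 0 (d0) expression change in the mouse embryonic stem cell line MMTR-F, which was transfected to overexpress full-length, Flag-tagged MMTR/Dmap1. The line was picked for its small change between days, known from earlier results of these data. Its libraries were taken by their labels and are 2 of the 10 bead array libraries of the series, 1 at d0 with leukemia inhibitory factor (LIF) in the medium and 1 at d3 after LIF had been withdrawn for 3 days. By the paper's methods, cells were maintained on gelatin-coated dishes, and differentiation used hanging drops, with the aggregates then moved to bacterial dishes. The loss of LIF and the change to aggregates therefore cannot be told apart in a day change. The remaining 8 libraries come from 4 other lines of the same G-CCE stem cells at the same days. These are WT, MMTR KD, MMTR-C and MMTR-N. The labels name no construct for WT, and the paper calls its control both WT and mock. MMTR KD was transduced with a lentiviral shRNA against MMTR/Dmap1. MMTR-C and MMTR-N were transfected with Flag-tagged C-terminal and N-terminal fragments of the protein. The transfected lines were selected with puromycin, and the paper calls MMTR KD and MMTR-F clones. Each line has 1 library per day, so an MMTR-F difference between d3 and d0 has no replicate error and no test. All values are on the log2 scale of the normalized bead signal unless stated otherwise, and a change is d3 minus d0. After the filter on detection, 17775 of 45281 probes were used, and 14281 of them named 9401 genes.

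Mouse embryonic stem cells grown with LIF are in a naive pluripotent state. LIF acts through the Stat3 transcription factor, which switches on its own feedback inhibitor Socs3 and transcription factors such as Klf4 that hold the naive state. When LIF is withdrawn, these genes and the naive network around Esrrb, Tfcp2l1 and Klf2 are shut down, and genes of the primed epiblast, such as Fgf5 and Otx2, come on. MMTR/Dmap1 is a subunit of the Tip60-p400 chromatin remodeling complex, and the comparison asks how far this transition ran in cells meant to carry more of it.

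The Dmap1 probe did not set MMTR-F apart from WT. In the libraries labelled MMTR-F its signal was 10.48 at d0 and 10.18 at d3, while the WT values were 10.59 and 10.42. In MMTR-C, whose fragment is contained in the full-length protein, it read 12.00 at both days. The paper reports immunoblots for expression of the full-length protein and of both fragments. How the probe signal relates to the amount of MMTR protein was not tested here. The name MMTR-F therefore stands here for the libraries that carry this label. All 6 markers of embryonic stem cells were measured in the MMTR-F libraries and detected at both days, between 9.36 and 15.98. Of 7 fibroblast markers only Thy1 was among the named probes, at 10.06 and 9.98, while of 5 macrophage markers only Csf1r, which was not detected at d0 and read 8.31 at d3. The median raw signal was 218 to 244 on the d0 arrays and 337 to 347 on the d3 arrays of all lines, so the day and this shift in raw signal cannot be told apart. In MMTR-F it was 226 and 337, and 40.2% and 37.3% of the probes were detected.

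The line was picked because its day change was the smallest of the 5, so the sizes given here describe that choice and are no result. In MMTR-F, 1218 probes (6.85%) were higher at d3 by 0.5 or more and 1155 (6.5%) were lower. In the other lines, 1522 to 1674 probes were higher and 1424 to 1557 were lower. The SD of the change over all probes was 0.39 in MMTR-F, 0.42 in MMTR KD, 0.45 in MMTR-N, 0.47 in WT and 0.48 in MMTR-C. A regression through 0 of each line on the mean of the remaining 4 gave slopes of 0.80 for MMTR-F, 0.88 for MMTR KD, 0.93 for MMTR-N, 1.01 for WT and 1.09 for MMTR-C. With 5 lines an exact permutation test of 1 line against the rest cannot give a p-value under 0.2. Across the 17775 probes, the Pearson correlation of the MMTR-F change was 0.81 with MMTR-N, 0.81 with MMTR KD, 0.79 with MMTR-C and 0.74 with WT. These correlations are across genes, which are not independent replicates. The ratio of the raw 99th percentile to the median of undetected probes, a measure of the range of the array, was 49.1 at d0 and 36.1 at d3 in MMTR-F and 48.4 to 65.8 and 35.2 to 42.8 in the other lines. Its part in the smaller change was not tested.

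Single genes were then compared between MMTR-F and the other lines. The change in MMTR-F was tested with limma against the mean change of the 4 other lines, whose spread gave the error. Of 17775 probes, 0 (0%) passed an adjusted p of 0.05, where the lowest adjusted p was 0.998. At an unadjusted p under 0.05, 727 probes (4.09%) passed. The same test of each other line against the remaining 4 also called 0 probes, with 641 to 1125 at the unadjusted level. The account below is therefore a description of sizes, with the difference between MMTR-F and the other lines given with its standard error (SE).

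To separate changes that were kept from those that were blunted, probes were taken that changed in the 4 other lines alone, by a mean of 1 or more and with a limma adjusted p under 0.05. These were 596 of 17775 probes (3.35%), of which 287 rose and 309 fell. MMTR-F was not used to choose them, but the line itself was picked for its small change. The MMTR-F change was then expressed as a percent of that mean. It was called kept from 75% up to 125%, reduced from 50% up to 75%, blunted from 0 up to 50%, larger above that range and opposite below 0. Among the rises the median was 84.7% of the change of the other lines. The kept class held 162 of them (56.4%, 95% Wilson interval 50.7 to 62.1) and the blunted class 22 (7.67%, 5.12 to 11.3). Among the falls the median was 74.4%. Here 137 were kept (44.3%, 38.9 to 49.9), 107 reduced (34.6%) and 47 blunted (15.2%, 11.6 to 19.6). The intervals treat probes as independent, which they are not. Among probes with a mean change of 0.5 or more in the other lines, the kept shares were 46.8% of rises and 46.0% of falls and the blunted shares 16.4% and 16.7%, so the gap between rises and falls was not seen there. The classes use measured values also where a probe was not detected in some libraries.

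**Figure D1:**
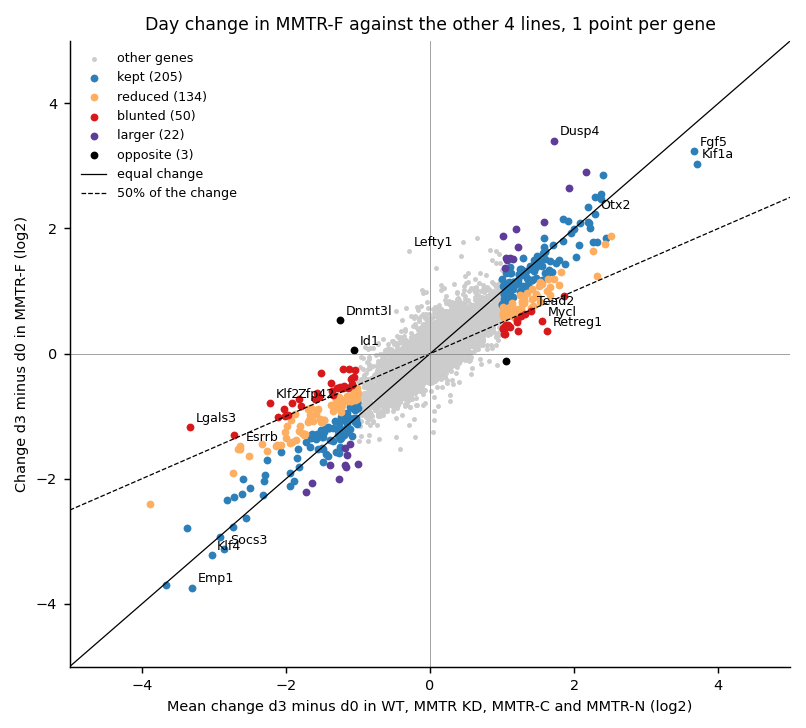
Change from d0 to d3 in MMTR-F (y axis, log2) against the mean change in the other 4 lines (x axis, log2), with 1 point per gene. Colours mark the genes that changed by 1 or more in the other lines by the share of that change seen in MMTR-F, and the numbers in the key count genes. Klf4, Socs3 and Otx2 lie near the line of equal change, and the red points, such as Klf2, Zfp42, Lgals3 and Mycl, lie between the dashed line of 50% and no change.

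The same division was made for every line against its own remaining 4, since a line left out of the choice of probes tends to read below the mean it is set against. The median for falls was 110.4% in WT, 118% in MMTR-C, 90.4% in MMTR-N and 88.9% in MMTR KD, each above the 74.4% in MMTR-F. The blunted share of falls was 4.25% in WT, 1.98% in MMTR-C, 7.04% in MMTR-N and 10.8% in MMTR KD. For rises the line with the lowest median was MMTR KD, at 83.1%, close to the 84.7% of MMTR-F. Counted by gene, MMTR-F had the smallest change of the 5 lines in 98 of 208 falls (47.1%) and 72 of 206 rises. For MMTR KD these counts were 57 of 206 falls and 73 of 205 rises. MMTR-F was picked for its small change, so its place among the lines here describes that choice and is no result. The limit between blunted and reduced runs through a continuous range, with Trio just inside at 49.7% and Nrep just outside at 50.9%.

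**Figure D2:**
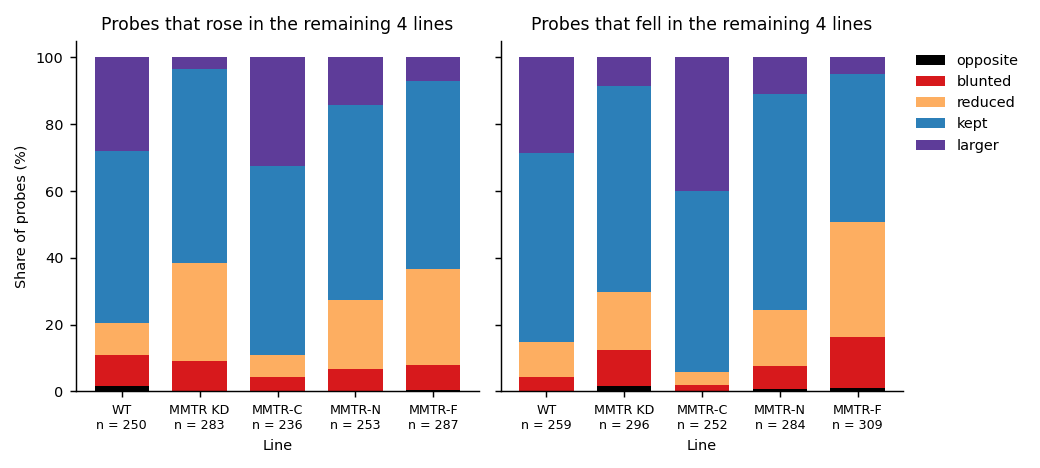
Share of probes (y axis, percent) in each class for the 5 lines, for probes that rose (left) or fell (right) in the remaining 4 lines, with the number of probes under each bar. In the right panel the MMTR-F bar has the largest blunted share, at 15.2%, and the smallest kept share, at 44.3%. MMTR-F was picked for its small change.

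In the LIF/Stat3 pathway, Socs3 and Stat3 were lower at d3 in MMTR-F by amounts close to those in the other lines. Socs3, the feedback inhibitor of LIF signaling, went from 11.64 at d0 to 8.51 at d3, a change of -3.13, which lay within the -2.50 to -3.25 of the other lines. Its d3 level was near 8.28, the lowest detected value of that array, which limits how far its fall could be read. Stat3 went from 11.22 to 9.70, a change of -1.52 against a mean of -1.50 ± 0.08 (SE, n = 4) in the other lines. Junb, an AP-1 factor, was lower by 0.71 in MMTR-F and by the same mean amount in the other lines. Bcl3, a cofactor of NF-kappaB, read 9.79 at d0 and was not detected at d3, so it was at least 2.86-fold lower. Of the 15 measured genes of a LIF/STAT3 response list, 7 were lower at d3 by 0.5 or more and 2 higher, against 7.5% and 8.51% of all genes. Among the 6 of these genes in the set that changed in the other lines, the falls of Socs3, Stat3 and Bcl3 and the rise of the LIF receptor kinase gene Jak1 were kept, Pim3 was reduced to 73.5% and Icam1 was blunted to 35.1%. Pim3 is a kinase gene and Icam1 encodes an adhesion molecule.

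Further genes had changes in MMTR-F among the lowest of all, a choice that favours the kept class. Emp1, which encodes an epithelial membrane protein, had the lowest of all genes, from 12.13 to 8.39. This was a change of -3.74. In the other lines Emp1 was not detected at d3, so their mean of -3.30 is only a limit and the share kept in MMTR-F was not measured. The small GTPase gene Mras went from 12.11 to 8.41 and the bHLH factor gene Msc from 11.81 to 8.88. Their changes of -3.70 and -2.93 were 100.7% and 100.4% of those in the other lines. The d3 level of Mras was near 8.28, the lowest detected value of that array, which limits what its share can show. The laminin subunit gene Lama1 changed by -2.77 (101.1%), the keratin gene Krt17 by -2.63 (102.7%) and Bmp4, which encodes a ligand that supports self-renewal together with LIF, by -2.24 (86.1%). For Krt17 and Lama1 the other lines themselves were spread, with standard errors of 0.36 and 0.29.

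Promoters of kept and blunted falls were searched for the palindromic site of STAT factors, TTCNNNGAA, and for the E-box CACGTG of Myc and Max. The window was the 250 bases before each annotated start in RefSeq (GRCm38.p6), and each motif reads the same on both strands. A promoter was available for 59 of 89 kept falls, 57 of 75 reduced falls and 30 of 32 blunted falls, an uneven loss. Among these, the STAT letters were found in 11 of 59 kept falls (18.6%), 5 of 57 reduced falls (8.77%) and 1 of 30 blunted falls (3.33%). The share was 6.97% of the 7656 measured genes with a promoter and 8.13% of all 27025 genes. The E-box was found in 6 of 59 (10.2%), 3 of 57 (5.26%) and 4 of 30 (13.3%), against 10.4% of the measured genes and 6.86% of all genes. These shares are descriptions of small counts, and a match is not a binding site. Below, Socs3 and Emp1 stand for falls of the kept class with the STAT letters. For Emp1 that class rests on other lines in which it was not detected at d3, so its share was not measured. Klf4 stands for a kept fall with the E-box and Klf2 for a blunted fall with neither. Capitals mark the motif, and the coordinates are those of the printed bases: Socs3 at chr11:117969367-117969616 on the minus strand, Emp1 at chr6:135362681-135362930 on the plus strand, Klf4 at chr4:55532476-55532725 on the minus strand and Klf2 at chr8:72318812-72319061 on the plus strand.
Socs3: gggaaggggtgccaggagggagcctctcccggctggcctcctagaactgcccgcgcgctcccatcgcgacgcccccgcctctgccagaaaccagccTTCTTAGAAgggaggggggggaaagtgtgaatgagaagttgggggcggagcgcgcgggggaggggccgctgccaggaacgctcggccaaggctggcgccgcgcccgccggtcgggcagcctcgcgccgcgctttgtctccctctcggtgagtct
Emp1: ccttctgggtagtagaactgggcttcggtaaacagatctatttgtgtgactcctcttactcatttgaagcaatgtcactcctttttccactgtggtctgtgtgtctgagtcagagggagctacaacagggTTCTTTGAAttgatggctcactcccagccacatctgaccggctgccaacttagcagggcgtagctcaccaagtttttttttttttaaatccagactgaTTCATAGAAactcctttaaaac
Klf4: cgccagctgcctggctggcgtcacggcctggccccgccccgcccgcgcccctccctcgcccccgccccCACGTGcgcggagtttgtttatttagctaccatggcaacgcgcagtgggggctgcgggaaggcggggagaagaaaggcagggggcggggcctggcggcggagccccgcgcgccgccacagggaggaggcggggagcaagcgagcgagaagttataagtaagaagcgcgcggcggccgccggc
Klf2: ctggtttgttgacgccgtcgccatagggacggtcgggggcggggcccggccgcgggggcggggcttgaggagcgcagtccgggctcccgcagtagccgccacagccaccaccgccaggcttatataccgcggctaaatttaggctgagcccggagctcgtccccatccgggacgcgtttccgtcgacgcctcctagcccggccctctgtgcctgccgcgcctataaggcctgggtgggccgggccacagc

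In Socs3 the letters start 154 bases before the annotated start, and in Emp1 there are 2 matches, at 120 and 22 bases. In Klf4 the E-box starts 182 bases before it. Emp1 has a further annotated start without a match.

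The naive pluripotency genes were lower at d3 in MMTR-F, most of them by less than in the other lines. Of 18 measured genes of the list, 15 were lower at d3 by 0.5 or more and 0 were higher, but the median change was -1.24, which was the least negative of the lines. MMTR-N had -1.58 and MMTR KD -2.02, and the medians of WT and MMTR-C were -2.72 and -2.71. The median over all genes was between -0.01 and 0.01 in every line. Among the 13 that fell by 1 or more in the other lines, 6 were kept, 4 reduced and 3 blunted, shares close to those over all 208 falls (42.8% kept, 36.1% reduced and 15.4% blunted). MMTR-F, picked for its small change, had the highest change of the 5 lines in 10 of the 18 genes. For most of them this was the least negative change. The share was 17.3% over all genes and 47.1% over the 208 falls. At the unadjusted level the difference passed in 4 of the 18, against 4.95% of all genes.

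Klf4, Tbx3, Gbx2, Klf5, Nr5a2 and Jam2 formed the kept group. Klf4, a target of Stat3, went from 12.32 at d0 to 9.09 at d3 in MMTR-F, and its change of -3.22 lay between those of MMTR KD (-2.51) and MMTR-C (-3.27). Gbx2, a homeobox gene that also lies downstream of LIF, went from 12.80 to 10.02, a change of -2.79. Tbx3 went from 11.94 to 9.61 (82.9% of the other lines), Klf5 from 13.43 to 11.28 (85.8%), the orphan nuclear receptor gene Nr5a2 from 12.23 to 10.22 (77.3%) and the junctional adhesion gene Jam2 from 11.22 to 8.93 (84.4%). For Tbx3 a weaker probe of the same gene changed by only -0.64.

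Klf2, Zfp42 and Fbxo15 were the blunted genes of the list. Klf2, a Krüppel-like factor that sustains the naive state downstream of Mek inhibition, stayed at 13.88 and 13.09 in MMTR-F. Its change was -0.79, near the -1.04 of MMTR-N, with -1.74 for MMTR KD, -3.09 for MMTR-C and -3.00 for WT. All 5 lines were within 12.73 to 14.05 at d0, and at d3 MMTR-F and MMTR-N (12.97) stood about 2 above the 10.67 to 10.99 of the others. Zfp42, also known as Rex1 and used as a reporter of the naive state, went from 13.39 to 12.60, a change of -0.79 against -1.12 to -2.36 in the other lines. The difference from their mean was 1.12 ± 0.42 (SE). Fbxo15, an F-box gene used as a stem cell reporter, went from 12.66 to 11.65. The MMTR-F change of -1.01 was near that of MMTR-N (-0.90), while the other 3 lines had -2.46 to -2.58.

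Esrrb, Tfcp2l1, Tcl1 and Mybl2 lay in between. Esrrb, an orphan nuclear receptor gene at the centre of the naive network, went from 15.08 to 13.61. Its d0 level was close to the 14.56 to 15.03 of the other lines, and its d3 level was the highest of the 5, against 13.15 in MMTR-N and 11.48 in WT. Tfcp2l1 went from 13.87 to 12.24 (65.1% of the other lines), Tcl1, a coactivator of Akt, from 12.42 to 10.91 (57.0%), and the B-Myb gene Mybl2 from 13.07 to 12.11 (60.5%). Nanog changed by -0.65, within the -0.25 to -1.38 of the other lines. Tfap2c and Dppa3 stayed level in MMTR-F, with changes of 0.08 (-0.11 for Tfap2c with median scaling) and 0.07. In the other lines Tfap2c ran from -2.31 in MMTR-C to 1.14 in MMTR-N, so its mean there had no clear direction.

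**Figure D3:**
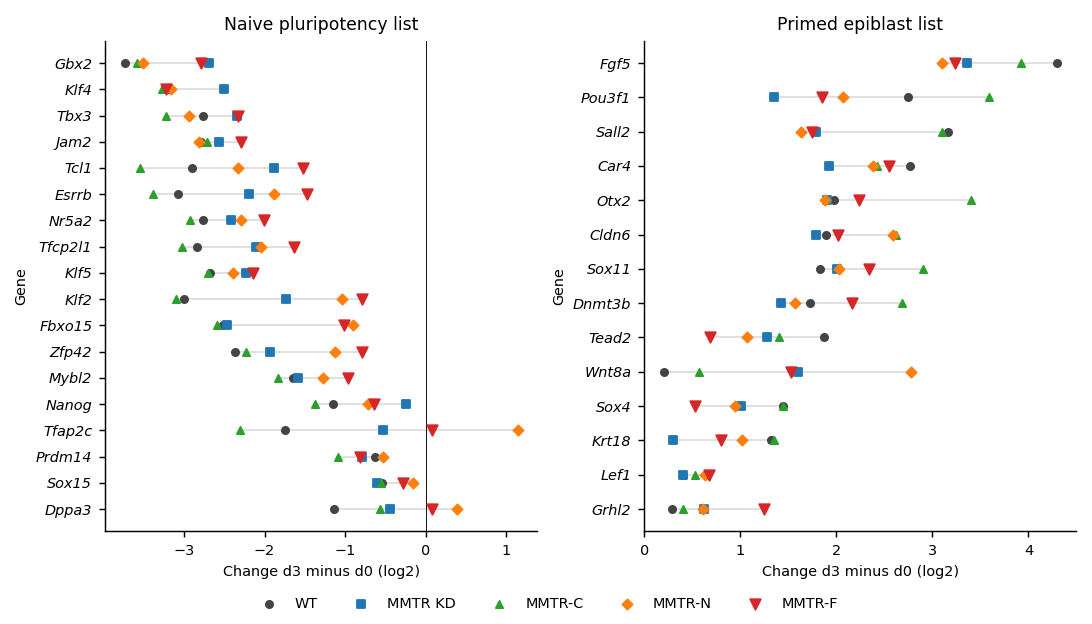
Change from d0 to d3 (x axis, log2) of each measured gene of the naive pluripotency list (left, 18 genes) and the primed epiblast list (right, 14 genes), with 1 marker per line. The red triangles of MMTR-F lie at the right end of the row for 10 of the 18 naive genes, including Klf2, Zfp42 and Esrrb, and among the other markers for Klf4 and for most primed genes.

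Most core pluripotency genes changed by less than 0.5 in MMTR-F. The 14 measured genes had a median change of -0.16 in MMTR-F and -0.33 to -0.54 in the other lines. In MMTR-F 3 of them were lower by 0.5 or more, against 7.5% of all genes. Pou5f1, which encodes Oct4, was at 13.26 at d0 and changed by -0.26, and Sox2 read 10.06 and 9.36. Dppa2, a chromatin factor of early embryos, changed by -0.14 in MMTR-F and by -0.56 to -1.18 in the other lines.

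Genes of the primed epiblast were higher at d3 in MMTR-F at nearly the level of WT. All 14 measured genes of the list were higher by 0.5 or more, against 8.51% of all genes, with a median of 1.80 in MMTR-F, 1.85 in WT, 1.51 in MMTR KD, 2.52 in MMTR-C and 1.76 in MMTR-N. Fgf5, the growth factor gene that marks the early epiblast, was not detected at d0 and read 11.21 at d3, at least 8.10-fold higher. Otx2, a homeobox gene that drives exit from the naive state, went from 10.54 to 12.77, a change of 2.23 against 2.29 ± 0.25 (SE, n = 4). The de novo DNA methyltransferase gene Dnmt3b went from 12.98 to 15.14, the SoxC gene Sox11 from 9.16 to 11.51 and the carbonic anhydrase gene Car4 from 8.36 to 10.90, at 116.6%, 107.0% and 107.2% of the other lines. Pou3f1, also known as Oct6, was at the edge of the kept range at 75.9%, with 10.47 at d3 in MMTR-F. The largest kept rise outside the list was that of the kinesin gene Kif1a, from 10.36 to 13.39. Ddit4, a stress-induced inhibitor of mTOR signaling, the iron exporter gene Slc40a1 and the potassium channel gene Kcnk1 were higher by 2.85, 2.47 and 2.50.

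**Figure D4:**
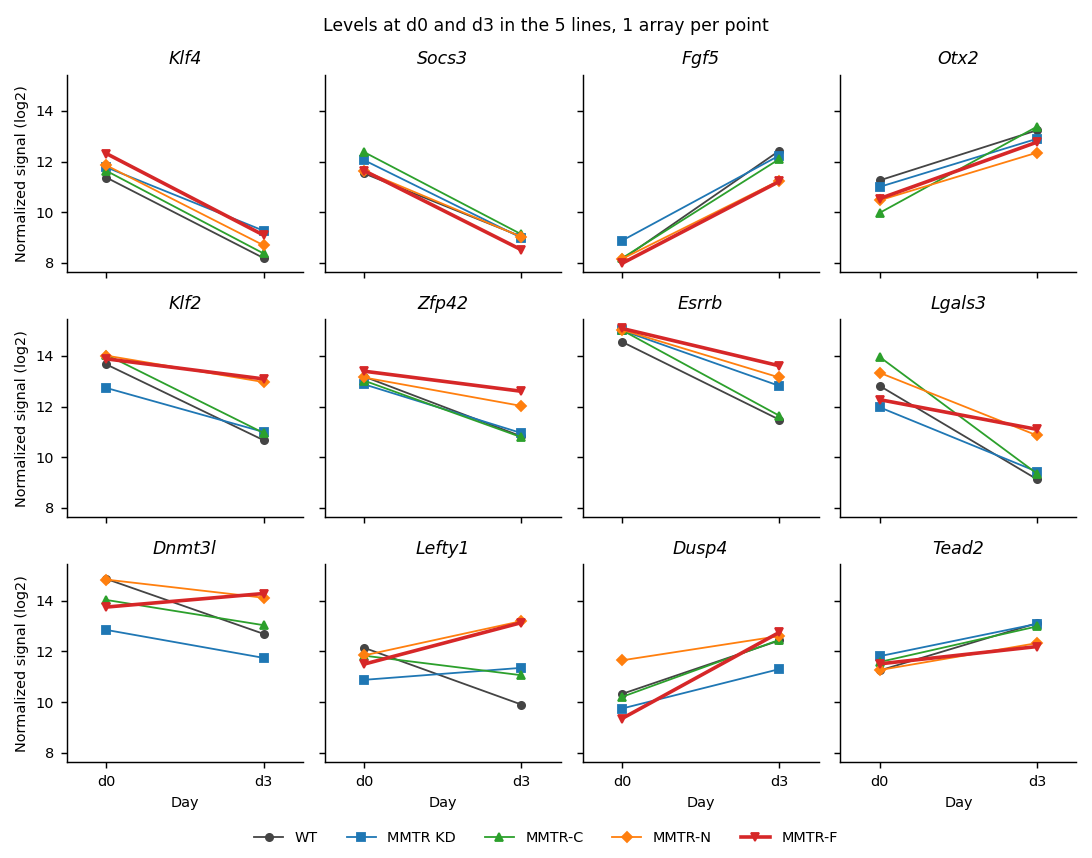
Normalized signal (y axis, log2) of 12 genes at d0 and d3 in the 5 lines, with 1 array per point and MMTR-F as the thick red line. MMTR-F runs beside the other lines for Klf4, Socs3 and Otx2, MMTR-F and MMTR-N are the highest at d3 for Klf2 and Lefty1, and Dnmt3l is higher at d3 only in MMTR-F. The Fgf5 point of MMTR-F at d0 is not above the detection limit.

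A small group of rises was blunted. By gene these were 18 of 206, and in 16 of the 18 MMTR-F had the smallest change of the 5 lines. The blunted class takes genes by a small MMTR-F change against the mean of the other lines. The count of 16 therefore largely follows from that rule and is no result. Tead2, the transcription factor gene of the Hippo pathway, went from 11.51 to 12.19, a change of 0.68 against 1.06 to 1.87 in the other lines. Sox4, a SoxC gene like Sox11, went from 9.57 to 10.10, a change of 0.53 against 0.95 to 1.45. Both belong to the primed epiblast list, as its 2 blunted members. Mycl, the L-Myc gene, went from 9.61 to 10.13. Its change of 0.52 stood apart from the narrow range of 1.27 to 1.75 in the other lines, with a difference of -1.04 ± 0.20 (SE). Retreg1, a receptor for autophagy of the endoplasmic reticulum, had the lowest share, 22.2%, and went from 9.63 to 9.99. The calcium-regulated factor gene Nfatc4 and the glucose transporter gene Slc2a1 were blunted to 42.0% and 42.4%.

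Among the falls, the blunted class of 32 genes held several outside the naive list. Lgals3, which encodes the sugar-binding protein galectin-3, had the largest difference between MMTR-F and the other lines. It went from 12.27 to 11.10, a change of -1.17 against -2.47 to -4.61, and a difference of 2.15 ± 0.75 (SE). Mylpf, a myosin light chain gene, went from 11.88 to 10.59, a change of -1.29 against -2.31 to -2.95. Hspb1, a small heat shock protein gene, changed by -0.83 against -1.27 to -2.34. Laptm5, which encodes a lysosomal membrane protein, had the largest mean fall of all genes in the other lines, -3.89 ± 0.26, and was reduced in MMTR-F to -2.41.

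A blunted fall can come from a level that was already low at d0 or from one that stayed high at d3, and both kinds occurred. In 19 of the 32 blunted falls, MMTR-F at d3 was above the mean of the other lines by 0.5 or more, and in 9 it was below their mean at d0 by that amount. The median gap was -0.20 at d0 and 0.74 at d3. Klf2 and Zfp42 were of the second kind, with gaps of 0.27 and 0.34 at d0 and 1.69 and 1.46 at d3. Khdc3, an oocyte and stem cell gene, was of the first, with 9.35 in MMTR-F against 10.33 to 10.60 in the other lines at d0. At d3 it read 8.36 against 8.30 to 8.60. These d3 levels were near 8.24 to 8.28, the lowest detected values of the d3 arrays, which limits what the share of Khdc3 can show. Tgfbi, a matrix protein gene, was likewise low at d0, at 8.99, close to the 8.88 of WT and below the 10.02 to 11.56 of the others, and it was not detected at d3. For blunted rises, 11 of 18 genes were below the mean of the other lines at d3 by 0.5 or more and 3 were above it at d0.

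Larger changes in MMTR-F were few, and 7 of the 12 rises and 5 of the 10 falls started from a different d0 level. Of 12 genes with a larger rise, 7 were lower than the other lines at d0 by 0.5 or more and 2 were higher at d3. Dusp4, which encodes a phosphatase of ERK kinases, had the highest change of all genes in MMTR-F. It went from 9.35 to 12.75, a change of 3.40 against 0.96 to 2.25 in the other lines. At d3 its level was near the 12.43 to 12.61 of WT, MMTR-C and MMTR-N, whereas at d0 it was the lowest of the 5 lines, which ranged up to 11.65. The mucin-like membrane protein gene Pdpn (9.67 to 12.58), the splicing regulator gene Esrp1 (10.55 to 13.20) and the Krüppel-like factor gene Klf6 (11.04 to 13.02) were also lower than the mean of the other lines at d0. Of 10 larger falls, 5 were higher at d0 by 0.5 or more. They included Egr1, an immediate early gene of ERK signaling, which went from 13.63 to 11.63. The Wnt receptor gene Fzd5, also among the larger falls, went from 12.62 to 10.41 and was above the mean of the other lines at d0 by 0.32. The other lines were far apart for Egr1, with -0.33 in MMTR KD and -2.21 in MMTR-N.

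Opposite changes were seen in 3 genes. Dnmt3l, which encodes the cofactor of the de novo DNA methyltransferases, went from 13.75 to 14.29 in MMTR-F, 0.53 higher, and was lower at d3 in every other line, with changes from -0.72 in MMTR-N to -2.17 in WT. Its other probe was higher by 0.34 in MMTR-F, and with median scaling the Dnmt3l change there was 0.29. Id1, a target of BMP signaling, was at 10.31 and 10.36 in MMTR-F, a change of 0.06 that turned to -0.11 with median scaling, and changed by 0.16 in MMTR KD, but by -1.13 to -1.90 in the other 3 lines. Prxl2a, a thioredoxin-like gene, changed by -0.11, against 0.24 in MMTR-N and 1.03 to 1.73 in the others. Among the other genes of a DNA methylation list, Dnmt1 stayed level (-0.02), the hydroxylase gene Tet1 changed by -1.30 (mean of the other lines -1.28) and the methyl-binding protein gene Mbd2 changed by 0.29 against 0.83 to 1.05.

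Ligands and inhibitors of the Nodal pathway, which maintains primed pluripotency, differed widely among the lines. Nodal itself went from 11.15 to 12.26 in MMTR-F, 1.10 higher, with 1.24 in MMTR-N, 0.74 in MMTR KD, -0.08 in MMTR-C and -1.29 in WT. Its feedback inhibitor Lefty1 went from 11.50 to 13.14, 1.64 higher, with 1.35, 0.47, -0.77 and -2.24 in the same order of lines. For both genes MMTR-F and MMTR-N were the highest and WT was the lowest. Lefty2 changed by -0.70, close to MMTR-N (-0.65), with -0.16 in MMTR KD and -2.20 in WT. The coreceptor gene Tdgf1 and the convertase gene Pcsk6 were kept, at -0.99 and -1.22, and the ligand gene Gdf3 was reduced, at -1.26. Skil, a repressor of Smad signaling, had a larger rise, at 1.53. The difference from the mean of the other lines was 1.94 ± 1.15 (SE) for Lefty1 and 0.95 ± 0.82 for Nodal, with the Nodal change inside the range of those lines and the Lefty1 change just above it. Of the 16 measured genes of the list, 6 were higher by 0.5 or more and 4 lower, against 8.51% and 7.5% of all genes.

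In the FGF/ERK list 4 of 15 measured genes were higher by 0.5 or more and 3 lower, against 8.51% and 7.5% of all genes. The median was -0.11 (0.08 with median scaling). Besides Fgf5 and Dusp4, the higher genes were the receptor gene Fgfr2 (9.08 to 10.92) and Dusp6, a further ERK phosphatase gene (11.94 to 13.05). Fgfr2 changed by 1.84, the highest of the 5 lines, where WT was the lowest at -0.04. Dusp6 changed by 1.11, above the 0.86 in WT, but another of its 3 probes changed by -0.09. In the Wnt list 6 of 12 genes were higher by 0.5 or more, against 8.51% of all genes. Among them were the target genes Axin2 (9.06 to 10.36) and Sp5 (8.71 to 10.35) and the receptor gene Fzd7 (10.38 to 12.23). Sp5 was split among the lines, with -1.38 in WT and 3.41 in MMTR-N. In the BMP/Id list Id2 was 0.24 higher in MMTR-F and between -1.36 and 0.02 in the other lines.

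**Figure D5:**
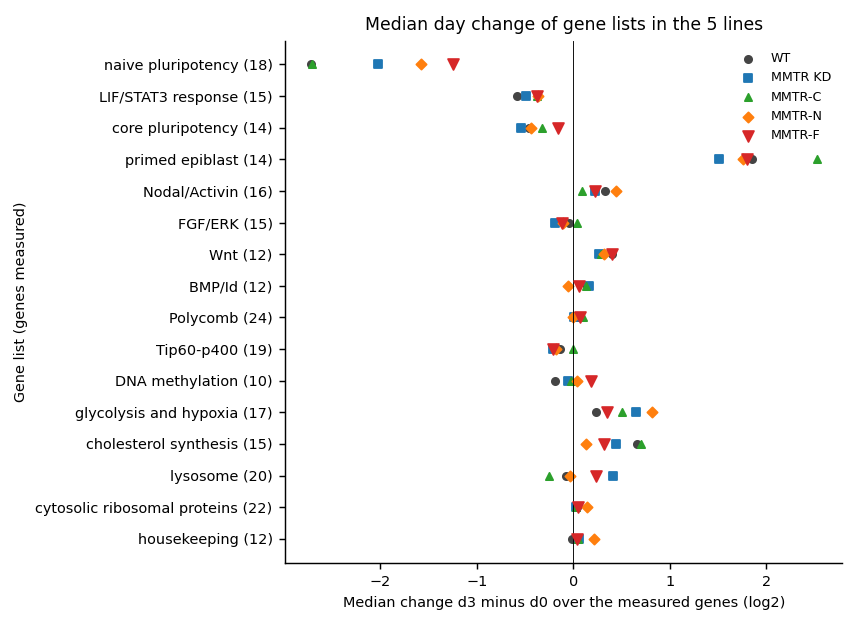
Median change from d0 to d3 (x axis, log2) over the measured genes of 16 lists (y axis, number of genes in brackets) in the 5 lines. The naive pluripotency row spreads from -2.72 in WT to -1.24 in MMTR-F, while the ribosomal and housekeeping rows lie near 0 in MMTR-F (0.05 and 0.04, or -0.10 and -0.16 with median scaling).

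Few genes of the lineage lists were measured, and the chromatin and housekeeping lists had small median changes. Of 16 mesendoderm and mesoderm genes 4 were measured, and Fgf8 among them was not detected at d0 and was at least 2.65-fold higher at d3. Of 8 measured neuroectoderm genes 5 were lower and 2 higher by 0.5 or more, against 7.5% and 8.51% of all genes. The 5 that changed by 1 or more in the other lines were kept, against 42.8% of all falls and 56.3% of all rises. They include Gbx2 and Kif1a, already described above. The 19 measured Tip60-p400 genes had a median change of -0.21. Of these, 0 were higher and 3 lower by 0.5 or more (Trrap, Actl6a and H2az1), against 8.51% and 7.5% of all genes. The 24 Polycomb genes had a median of 0.07, with 4 higher and 3 lower by 0.5 or more, against 8.51% and 7.5% of all genes. The 2 that fell by 1 or more in the other lines, Epop and Eed, were reduced to 53% and 69.3% in MMTR-F. Cytosolic ribosomal protein genes (22) and housekeeping genes (12) had medians of 0.05 and 0.04, which turned to -0.10 and -0.16 with median scaling. Lysosomal genes had a median of 0.23, against -0.25 to 0.41 in the other lines. Among them the tetraspanin gene Cd63 was higher by 1.29, and Anxa2, an annexin of the adhesion list, was higher by 1.79, with 2.32 in MMTR-N and -1.16 in WT.

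Of all 9401 genes, 30 had a change in MMTR-F above that of every other line by at least 0.5 and 22 had one below, whichever way the gene itself went. The corresponding counts were 29 and 46 for WT, 37 and 40 for MMTR KD, 15 and 50 for MMTR-C and 87 and 42 for MMTR-N, so the MMTR-F count was the smallest on the lower side and in the middle on the upper side. Klhl15, an adaptor of a ubiquitin ligase, was the farthest on the lower side and was picked after its values were seen. It went from 9.62 to 8.36 in MMTR-F, a change of -1.25, and changed by -0.13 to 0.25 in the other lines.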

How the data were processed

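Biotin-labelled cRNA of 5 lines at 2 days was measured on Illumina bead arrays for mouse, with 1 array per line and day. For each array the authors deposited an intensity for 45281 probes, the mean over beads, and its detection p-value, as written by BeadStudio 3.2 according to the labels or by GenomeStudio according to the methods. They also deposited quantile normalized log2 values of 16652 probes, which served as an alternative. The series text calls the profiles duplicated, but each line and day has 1 column, and 0 columns were left unused.

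A probe was used where its detection p-value did not exceed 0.05 on 5 or more of the 10 arrays. The intensities of these probes were log2 transformed, then quantile normalized across arrays. Genes were named through the platform annotation supplied with the value table. Of the 17775 probes used, 3494 had no name there. A gene with several probes was represented by that with the highest mean signal. There were 3418 such genes, and in 2 of them probes went opposite ways by 0.5 or more. A probe not detected in 1 MMTR-F library is given as a bound, against the higher of its own value and the lowest detected value of that array.

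The MMTR-F change was compared with that of the other 4 lines by limma 3.58.1 in R 4.3.3 on the 5 within-line changes, with 3 residual and 4.062 prior degrees of freedom, two-sided, with Benjamini-Hochberg adjustment. The fit was tested on simulated data. Other steps used Python 3.11.15 with pandas 2.3.3, numpy 2.4.6 and scipy 1.17.1.

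The comparison, the gene lists and the rule for named genes were chosen with earlier results of these data known, including that this line changed least. The rule took Dmap1, members of the lists, the genes of each class with the largest mean change in the other lines (10 kept and 10 blunted in each direction, 5 larger and 5 opposite), and the 10 largest rises and 10 largest falls in MMTR-F. The alternatives covered background correction, scaling, filter, threshold, choice of probe, variance trend, the deposited table, the reference lines and leaving out each line.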

Additional observations from a re-analysis of the deposited data

Results flagged for a closer look

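Dnmt3l was singled out because MMTR-F and all 4 other lines moved in opposite directions by 0.5 or more between d0 and d3. With median scaling the Dnmt3l change in MMTR-F was 0.29, under that limit. The difference between the MMTR-F change and the mean of the other lines was 1.78 ± 0.48 (SE, n = 4 lines), which did not pass the limma test after adjustment over all probes (adjusted p = 0.998). With 1 library per line and day, no group was large enough to look for single libraries that stood apart.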

How the results depend on the processing

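No test of the MMTR-F day change itself was possible with 1 library per day, and depth is not known for arrays, whose number limits the precision. Every fit paired the days by line. Beyond that, no paired analysis was possible because replicate numbers link nothing with 1 library per line and day. The slope of MMTR-F on the other lines was 0.779 to 0.805 under 6 other settings, where it was the smallest of the 5 lines each time, and 0.752 to 0.813 when 1 other line was left out. Calls of MMTR-F against the other lines by limma were 0 to 0 when 1 line was left out and 0 under every other setting run. The unadjusted p under 0.05 then gave 506 (without WT), 916 (without MMTR KD), 553 (without MMTR-C) and 1045 (without MMTR-N) probes.

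With normexp background correction 2099 probes were higher at d3 and 2051 lower by 0.5 or more, with 1 probe a gene 800 and 705, and with a threshold of 1 248 and 213. With median scaling 1090 were higher and 1632 lower, so rises were 40.0% of the calls in place of 51.3%. The kept share of falls was 38.5% to 52.9% when 1 line was left out, lowest without MMTR-N and highest without WT, and 25.8% against WT alone. The blunted share of falls was 12.8% to 19.5% when 1 line was left out, 33.7% against WT alone and 38.5% with a limit of 0.67 of the change. The kept share of rises was 48.7% to 60.4%, 28.7% against WT alone and 46.8% with a minimum mean change of 0.5, where the share of falls was 46.0%. The blunted share of rises was 4.59% without WT to 12.8% without MMTR-N, 26.4% against WT alone, 16.4% with a minimum mean change of 0.5 (falls 16.7%) and 26.1% with the limit of 0.67. The cause of these shifts was not tested. Small values changed sign with median scaling, namely the medians of the FGF/ERK (0.08), ribosomal (-0.10) and housekeeping (-0.16) lists, Id1 (-0.11) and Tfap2c (-0.11). With probes detected on all 10 arrays the primitive endoderm median went from -0.18 to 0.01.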
